A study of Capitella teleta with 12 samples.

Results

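The division that takes embryos of the marine annelid *Capitella teleta* to the 32-cell stage was examined across 10839 of 32415 gene models. These had at least 10 counts summed over 8 of the 12 single embryos sequenced, 5 of the 32-cell stage and 3 of the 16-cell stage. Each embryo was sequenced whole and alone by CEL-Seq, a method that reads the 3′ ends of transcripts and marks every captured molecule with a random tag (UMI), whose amplified copies then count as 1. No treatment, mutation or strain is named in the labels, which also do not say whether embryos shared a brood, so p-values measure the spread between these embryos. The 4 embryos of the 8-cell stage entered the same fit to estimate that spread, and their levels are given beside those of the later stages. Of the gene models, 313 had exactly 10 counts and were included, and 327 had 9 counts and were not. Total counts per embryo were 236321 to 408777 in 32-cell embryos and 313356 to 491733 in 16-cell embryos. Levels are counts scaled to 1000000 per embryo (CPM) after TMM scaling, a correction for differences in RNA composition. Apart from components of the TGF-β superfamily listed by the study, the gene models carry no gene name in the files or in the annotation used here, and are given by number. For this reason the stage labels could not be checked against known stage markers.

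The first divisions of an animal embryo run largely on RNA and protein that the mother placed in the egg. Control passes to the embryo's own genome during the maternal-to-zygotic transition, when many maternal transcripts are degraded and zygotic genes are first transcribed. Spiral cleavage, the pattern shared by annelids and mollusks, sets out cells of predictable position and fate at each division. In *C. teleta* the micromere 2d acts as an organizer of the body axes, which is why its signals were sought in early cleavage. The study describes this signal as required up to and including the stage before the division examined here. The stage after this division is placed by the study past organizer activity. In RNA of whole embryos, fewer cells with a transcript and less of it per cell cannot be told apart.

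More transcripts were higher than lower in 32-cell embryos, and their log2 fold changes had the larger median. By the quasi-likelihood F test of edgeR, with p-values adjusted by Benjamini-Hochberg and a threshold of 0.05, 263 of 10839 genes passed the threshold (2.43%). Of these, 209 were higher (1.93% of the genes tested) and 54 were lower (0.498%) in 32-cell embryos. Among the higher genes the median log2 fold change was 3.60, or 3.23 with genes lacking a 16-cell count set at their lower bound, and 180 of 209 exceeded 2. Among the lower genes the median was -0.98, and 11 of 54 lay below -2. Over all genes tested the median was 0.00. With library totals in place of TMM scaling, 204 genes were higher and 90 lower, so that the share of calls that were higher was 69.4% in place of 79.5%. The call was held with each of the 12 embryos left out in turn for 145 of the 209 higher genes and for 18 of the 54 lower genes.

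The level of a gene set how well a change could be seen. Among 3190 genes averaging 3 to 10 CPM the log2 fold change had a median standard error of 0.831, and 0.63% of them were called higher and 0 lower. Among 740 genes of 300 CPM or more the median standard error was 0.136, and 2.3% were called higher and 0.81% lower. A moderate fall like those of abundant genes was therefore not detectable at this depth among genes of a few counts.

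**Figure D1:**
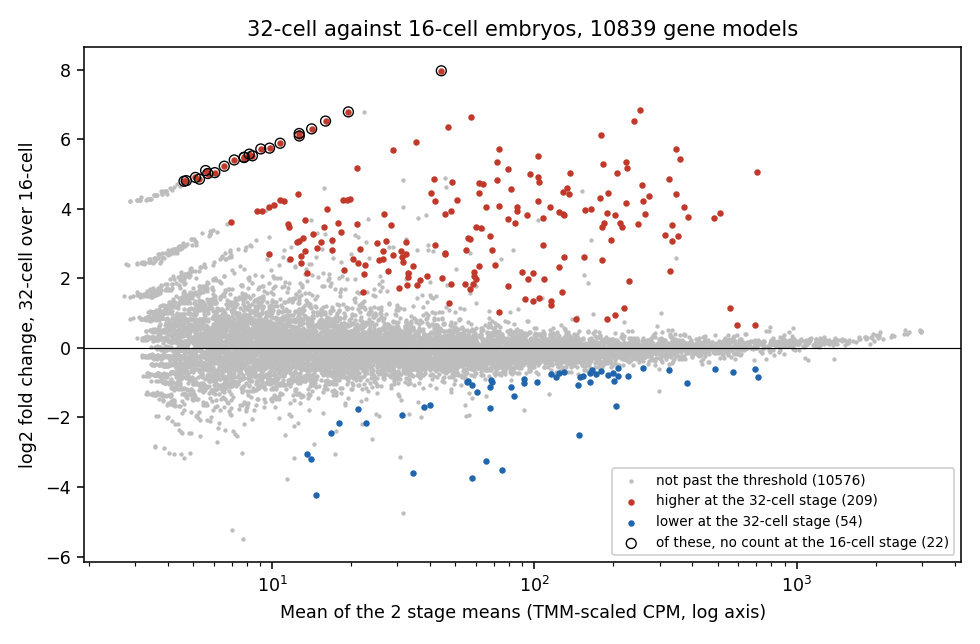
Log2 fold change between the 32- and 16-cell stages against mean level (CPM, log axis) for 10839 gene models, with genes past the threshold in colour and, of these, the 22 without a 16-cell count ringed. The 209 higher genes reach far larger changes than the 54 lower genes and include genes of all levels from a few CPM upward.

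A gene model that was rare in 16-cell embryos had become one of the most abundant transcripts. Gene model 222506 stood at 1225, 1327, 1318, 1417 and 1595 CPM in the 5 embryos of the 32-cell stage, against 37.1, 30.3 and 51.9 CPM in the 3 embryos of the 16-cell stage. The stages were widely apart, where no overlap was a condition for naming the gene. Its rank among all gene models was 67 in 32-cell embryos and 4164 in 16-cell embryos. The log2 fold change was 5.07 (standard error 0.24, edgeR adjusted p = 3.40e-12). The 8-cell embryos had 1, 0, 7 and 6 counts of it. Its highest count was 544, in 32-cell replicate 2, and no other called gene exceeded 512 counts in an embryo. The largest count was 1024, taken here as the limit set by the number of tags. In the 8 embryos 5 gene models reached it in 19 values, and 0 of these 5 were called. A change can be hidden at this limit, so no stability is read from it.

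The 6 largest rises are given for genes with at least 3 counts in 16-cell embryos and no overlap of the stages. They lay between 5.53 and 6.85 on the log2 scale. On so few 16-cell counts the sizes are loose, and without 16-cell replicate 1 the largest was 8.47. Gene model 205791 had 659, 781, 628, 742 and 599 CPM in 32-cell embryos, against 18.5, 4.66 and 15.4 CPM in 16-cell embryos (log2 fold change 5.72, standard error 0.27, edgeR adjusted p = 3.40e-12). Gene model 40457 had 79, 156, 108, 105 and 93 counts in 32-cell embryos, against 3, 1 and 2 counts in 16-cell embryos (log2 fold change 6.12, standard error 0.32, edgeR adjusted p = 1.34e-11). Both were low in every 16-cell embryo and high in every 32-cell embryo. Gene model 104664 had 42, 77, 61, 62 and 59 counts, against 3, 1 and 1 (log2 fold change 5.53), and gene model 212544 had 33, 73, 37, 43 and 36 counts, against 1, 0 and 2 (log2 fold change 5.73). Without 16-cell replicate 1 the log2 fold change of gene model 104664 was 6.35, and without 16-cell replicate 3 that of gene model 212544 was 6.40.

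The largest log2 fold changes of these 6 belonged to a pair of gene models whose counts cannot be treated as separate. Gene model 204402 had 114, 216, 133, 147 and 147 counts in 32-cell embryos, against 4, 1 and 0 in 16-cell embryos (log2 fold change 6.85, adjusted p = 5.41e-11 in edgeR). Gene model 192256 had 105, 206, 128, 133 and 143 counts, against 5, 0 and 1 (log2 fold change 6.53, adjusted p = 7.93e-11 in edgeR). Without 16-cell replicate 1, which held most of the 16-cell counts, the log2 fold changes of 204402 and 192256 were 8.47 and 8.40, and without 16-cell replicate 3 that of 204402 was 6.15, all past the threshold. Both span 1035 bp in the annotation, and the counts of 192256 were 0.905 to 0.973 times those of 204402 in each of the 5 embryos. They may be copies that share reads, which was not tested, and gene model 204402 also overlaps another annotated gene.

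Most of the higher genes were already detectable one division earlier, though they lacked a 16-cell count more often than all genes tested. Of the 209, 136 had counts in 3 of 3 embryos of the 16-cell stage and 22 in none, where 60 of the 10839 genes tested had none. An average under 10 CPM there was found for 111 of the 209, and for 3369 of the 10839 genes tested. At the 32-cell stage 205 of the 209 had counts in 5 of 5 embryos, and 100 averaged over 100 CPM, against 8 in 16-cell embryos. Having been chosen for low 16-cell and high 32-cell levels, these genes were likely to show this, and nothing is read from it. The TMM-scaled levels of the 2 stages did not overlap for 201 of the 209, where 4.71% of all genes tested were separated in this direction. Levels of the higher genes in 8-cell embryos, which did not enter the contrast, were lower still, with a median of 2.90 CPM, followed by 9.28 CPM in 16-cell embryos and 95.7 CPM in 32-cell embryos. All 5 embryos of the 32-cell stage lay above all 4 of the 8-cell stage for 191 of the 209, and for 1120 of the 10839 genes tested (10.3%), where the 209 had been chosen for high levels in the same 32-cell embryos. Together these genes held between 0.268% and 0.359% of the counts of 8-cell embryos, between 0.482% and 0.584% in 16-cell embryos and between 3.38% and 3.89% in 32-cell embryos. These shares describe genes chosen for the last step and were not tested.

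**Figure D2:**
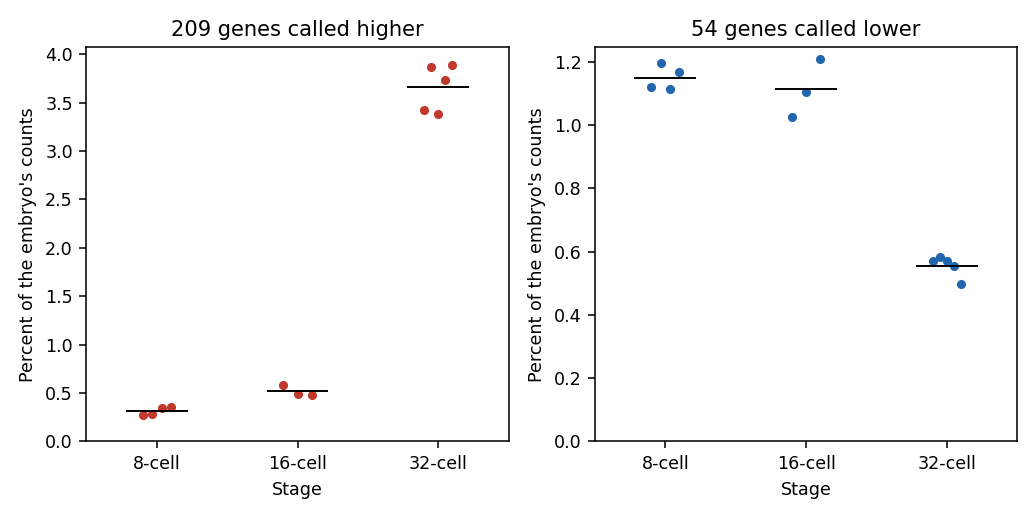
Percent of the counts of each embryo (points) held by the 209 genes called higher and the 54 called lower, at the 8-, 16- and 32-cell stages, with stage means as lines. The higher genes hold 0.268% to 0.584% of the counts at the earlier stages and 3.38% to 3.89% in 32-cell embryos, and the lower genes hold 1.02% to 1.21% at the earlier stages and 0.496% to 0.583% in 32-cell embryos.

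Among all genes tested, 60 had no count in any of the 3 16-cell embryos. They could pass the minimum only through their counts in 32-cell embryos, so their direction was fixed by the minimum. Of the 60, 22 passed the threshold, 20 of them with counts in 5 of 5 embryos and 2 in 4 of 5. A gene without a count could still have been present at up to 2.44 CPM in 16-cell embryos, the level that 3 counts over the stage allow. This limit covers counting error only. Lower bounds of the change below use it.

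Gene model 213590 had the most counts of this kind, 25, 52, 19, 31 and 14 in 32-cell embryos, against 0 in each 16-cell embryo. It was at least 36.75-fold higher in 32-cell embryos (adjusted p = 3.68e-07 in edgeR), and the 8-cell embryos had 1 count in all. Every 32-cell embryo had 14 or more counts of it, so that its presence did not rest on 1 embryo. Gene model 186833 had 13, 13, 13, 15 and 6 counts (at least 15.6-fold higher), and gene model 194364 had 3, 17, 12, 15 and 4 counts (at least 13.3-fold higher). Gene model 190156 had 4, 10, 8, 12 and 8 counts (at least 10.95-fold higher), and gene model 212124 had 7, 13, 3, 10 and 6 counts (at least 10.2-fold higher). Gene model 175842 varied more, with 15, 2, 4, 4 and 10 counts (at least 9.12-fold higher). All 6 kept their call under each alternative in which they were tested, with adjusted p of up to 0.0458 for gene model 175842 in edgeR. Gene models 194364 and 190156 had 0 counts in 8-cell embryos too, and the other 4 had 1 or 2 there.

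The remaining 16 called genes without a 16-cell count had 15 to 31 counts in 32-cell embryos and were at least 3.91-fold to 8.08-fold higher. Of the 22, 11 had no count in 8-cell embryos either, and 11 had 1 to 5 counts there. The 38 that missed the threshold had a median of 11 counts in 32-cell embryos. One of them, gene model 221479, had 51 counts, of which 44 came from 32-cell replicate 5 and 1, 2, 4 and 0 from the other embryos (adjusted p = 0.171 in edgeR). The number called depended on the test, with 12 in DESeq2's Wald test and 3 under edgeR's filterByExpr, which removes most genes of so few counts.

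No transcript without a count in 32-cell embryos passed the threshold. The 2 directions are not on equal terms, since 5 embryos must lack a count here, against 3 for genes without a 16-cell count. A gene without a count could still have been present at up to 1.91 CPM in 32-cell embryos. Of the genes tested, 2 had no count in 32-cell embryos, and 0 of them passed the threshold in edgeR, while 2 had an unadjusted p under 0.05, and DESeq2 called 0. Gene model 75790 had 0 counts in the 5 embryos of the 32-cell stage, against 1, 17 and 2 in 16-cell embryos (adjusted p = 0.0724 in edgeR). Gene model 212786 had 0 counts in 32-cell embryos, against 8, 5 and 3 in 16-cell embryos (adjusted p = 0.125 in edgeR). In 8-cell embryos gene model 75790 had 0 counts and gene model 212786 had 2, 1, 23 and 0. Without 32-cell replicate 4, 16-cell replicate 1, 16-cell replicate 3 or 8-cell replicate 3, 1 gene without a 32-cell count was called, as it was with the 8 embryos alone.

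The 54 lower genes were more abundant before the division, with a median of 153 CPM in 8-cell embryos, 142.6 CPM in 16-cell embryos and 65.8 CPM in 32-cell embryos. By comparison, the medians over all genes tested were 21.7, 22.8 and 23.5 CPM at these stages. The lower genes had been chosen for high 16-cell levels, and 0 genes averaging 3 to 10 CPM were called lower. Nothing is therefore read from their higher level beside all genes. The groups did not overlap for 48 of the 54, where 3.66% of all genes tested were separated in this direction. Most falls were moderate, and 43 of the 54 had a log2 fold change of -2 or more. In 41 of these 43 the mean in 32-cell embryos lay below that in 8-cell embryos. Having been chosen for low levels in the same 32-cell embryos, they were likely to show this, and nothing is read from it. The 3 most abundant, all with smaller falls than the median of the lower genes (log2 fold change -0.98), follow. Gene model 228702 had 566.5, 517, 494, 409 and 572 CPM in 32-cell embryos, against 843.5, 1025 and 864 CPM in 16-cell embryos (log2 fold change -0.83 with standard error 0.15, edgeR adjusted p = 0.00168). Gene model 164816 had 408, 456, 428, 416 and 493 CPM, against 652, 775 and 686 CPM (log2 fold change -0.68, standard error 0.11, edgeR adjusted p = 0.000634). Gene model 228893 had 504, 546, 597, 619 and 479 CPM, against 831, 843 and 824 CPM (log2 fold change -0.60, standard error 0.14, edgeR adjusted p = 0.0183). With correction for UMI collisions the log2 fold changes of 228702, 164816 and 228893 were -1.04, -0.81 and -0.75. No 32-cell embryo reached the lowest 16-cell embryo for any of these 3, which had been chosen among genes whose stages did not overlap. The call for gene model 228893 was lost without 32-cell replicate 1 or 5 or without 16-cell replicate 1 or 3 (adjusted p between 0.0505 and 0.0835 in edgeR) and after thinning to the smallest total (0.069).

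The steepest falls often came with uneven 16-cell embryos. Of the 11 genes with a log2 fold change below -2, the 16-cell mean was the highest of the 3 stages in 11, as it was for 29.9% of all genes tested. Having been chosen for high 16-cell levels, these genes were likely to show this, and nothing is read from it. In 9 of the 11, a single 16-cell embryo held more than the other 2 together, as it did for 3205 of the 10839 genes tested. Gene model 194219 had 2, 3, 1, 4 and 2 counts in 32-cell embryos, against 6, 100 and 37 in 16-cell embryos (log2 fold change -3.74, standard error 0.62, edgeR adjusted p = 0.000582). Without 16-cell replicate 2, the highest embryo, the log2 fold change was -2.53 (adjusted p = 0.0276 in edgeR). The 8-cell embryos, with 8, 4, 3 and 1 counts, were close to the 32-cell embryos. It overlaps another annotated gene, and counting by strand is not given in the sources used here. Gene model 207905 had 1, 1, 1, 0 and 1 counts in 32-cell embryos, against 4, 6 and 26 (log2 fold change -3.18), and gene model 174522 had 1, 3, 1, 2 and 1 counts, against 3, 8 and 30 (log2 fold change -2.45). For both the high embryo was 16-cell replicate 3, without which their log2 fold changes were -2.18 (adjusted p = 0.264 in edgeR) and -1.40 (adjusted p = 0.597 in edgeR). The call for gene model 174522 was also lost without 32-cell replicate 1, 3 or 5 (adjusted p between 0.054 and 0.0779 in edgeR).

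Other steep falls were spread over the 16-cell embryos. Gene model 207452 had 2, 0, 2, 0 and 0 counts in 32-cell embryos, against 10, 11 and 9 in 16-cell embryos (log2 fold change -3.05, adjusted p = 0.0246 in edgeR). The 8-cell embryos had 0, 0, 3 and 1 counts of it. Its groups did not overlap, which was a condition for naming it. On so few counts the call was lost without 32-cell replicate 2, 4 or 5 or 16-cell replicate 1 or 2 (adjusted p between 0.0563 and 0.0912 in edgeR). Gene model 210041 had 2, 3, 2, 3 and 0 counts, against 7, 15 and 17 (log2 fold change -2.16, adjusted p = 0.0114 in edgeR), and lost its call without 16-cell replicate 2 (adjusted p = 0.0635 in edgeR) or 3 (0.0635). Gene models 207905, 174522, 207452 and 210041 also missed the threshold in DESeq2's Wald test (adjusted p of 0.0725, 0.232, 0.116 and 0.0615) and after thinning to the smallest total. Gene model 105534 had 2, 6, 7, 3 and 2 counts, against 15, 17 and 33 in 16-cell embryos, while the 8-cell embryos had 26, 16, 47 and 25. Its log2 fold change of -1.93 (standard error 0.36, edgeR adjusted p = 0.00205) was past the threshold under each alternative. At the other end stood gene model 221991, named after its values were seen, with 2, 4, 8, 2 and 2 counts in 32-cell embryos, against 110, 6 and 2 in 16-cell embryos (log2 fold change -3.24, adjusted p = 0.0430 in edgeR). Without 16-cell replicate 1 its log2 fold change was 0.43 (adjusted p = 0.907 in edgeR), the one call of the 263 that changed sign when an embryo was left out.

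**Figure D3:**
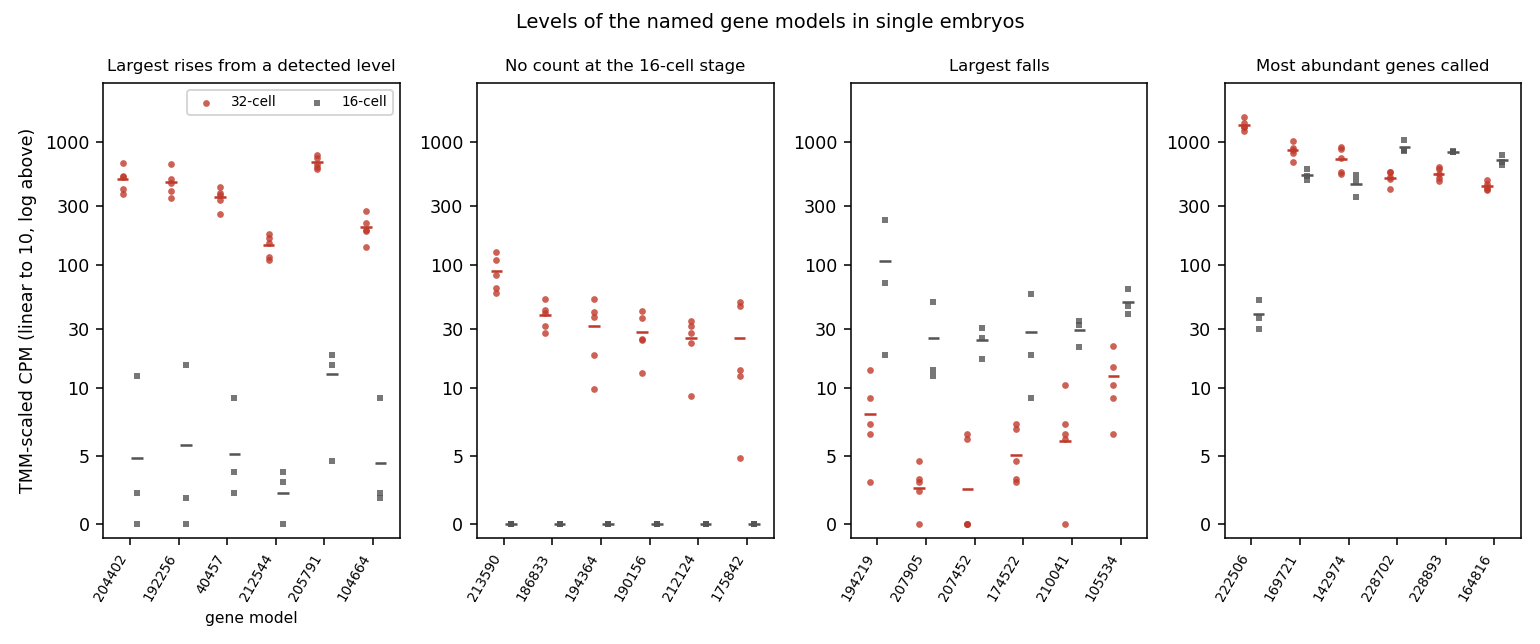
TMM-scaled CPM of the named gene models in single embryos (points, with stage means as lines) of the 32-cell stage (circles) and the 16-cell stage (squares), on an axis that is linear to 10 and logarithmic above. The largest rises separate all embryos of the stages by a wide margin, whereas among the largest falls the 16-cell embryos of gene models 194219, 207905 and 174522 differ widely from each other. All were chosen among genes whose stages did not overlap.

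Small changes of abundant transcripts were also called upward. Gene model 169721 had 688, 890.3, 815, 857 and 1019 CPM in 32-cell embryos, against 491, 598.5 and 524 CPM in 16-cell embryos (log2 fold change 0.66, standard error 0.15, edgeR adjusted p = 0.0173). Without 16-cell replicate 1 or 3 the adjusted p was 0.102 or 0.0967 in edgeR, and after thinning it was 0.0753. Gene model 142974 had 734.5, 568, 909, 542 and 871 CPM, against 476, 540.2 and 357 CPM (log2 fold change 0.66, adjusted p = 0.0486 in edgeR), and its nearest embryos stood at 542 CPM in the 32-cell stage and 540.2 CPM in the 16-cell stage. Its call was lost under 11 of 22 alternatives, among them without 32-cell replicate 1, 3 or 5, without 16-cell replicate 1 or 3 and without 8-cell replicate 3 or 4 (adjusted p between 0.0655 and 0.363 in edgeR).

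The higher genes had shorter models in the annotation than the genes that did not pass the threshold. Their gene span, the distance from start to end of the gene model with introns, had a median of 1375 bp (207 genes with a span), against 1860 bp for the 54 lower genes and 2988 bp for 10502 genes that did not pass the threshold. Spans under 1000 bp made up 36.7% of the higher genes, against 18.5% of the lower genes and 11.8% of the genes not past the threshold. The order of the higher and the uncalled genes was the same in each class of level, with medians of 1310 and 2558 bp under 10 CPM, 1788 and 2919 bp from 10 to 30 CPM, 1434 and 3134 bp from 30 to 100 CPM, and 1076 and 3333 bp above 100 CPM. Between higher and lower genes the order was not kept, with medians of 1788 and 1857 bp from 10 to 30 CPM, 1434 and 1406 bp from 30 to 100 CPM, and 1076 and 2243 bp above 100 CPM. Of the 22 genes without a 16-cell count, 11 spanned less than 1000 bp (50.0%), while gene model 194364 spanned 13949 bp. Spans are those of the gene models, which need not reach the transcript ends, and these differences were not tested.

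Higher genes also lay beside each other. Neighbours were taken as consecutive gene models of the annotation with rising start positions and at most 10000 bp between them, since scaffold names are not in the annotation used here. Of the 129 higher genes with a tested neighbour, 29 (22.5%) had a neighbour that was also called higher. Among 6717 genes not past the threshold this was 1.86%, and among 30 lower genes 0.0%. The definition was chosen after the data were seen, and the shares are a description without a test. With the 4 gene models left out whose counts were nearly equal to those of a copy, the share was 21.3%, and with the calls of DESeq2's Wald test it was 24.5%.

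The 29 genes formed 13 runs, 10 of 2 genes and 3 of 3 genes, with gaps of 385 to 7704 bp. One run of 3 held gene models 216164 (positions 229836 to 233953), 216165 (237683 to 238670) and 216166 (242843 to 243887) in the Capca1 assembly, whose annotation as used here leaves out the scaffold. Gene model 216164 had 103, 165, 119, 107 and 113 counts in 32-cell embryos, against 5, 6 and 4 in 16-cell embryos (log2 fold change 5.03, adjusted p = 4.09e-11 in edgeR). Gene model 216165 had 89, 145, 132, 141 and 135 counts, against 7, 2 and 4 (log2 fold change 5.34, adjusted p = 1.95e-09 in edgeR). Both were uniformly high in 32-cell embryos. Their neighbour 216166 was uneven, with 32, 44, 4, 8 and 32 counts, against 2, 1 and 0 (log2 fold change 4.85, adjusted p = 0.000794 in edgeR). So neighbours called together did not always share their pattern over embryos.

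In another run, gene models 193830 and 193831 lay 2947 bp apart and had 117, 175, 99, 101 and 104 counts and 170, 292, 212, 188 and 154 counts in 32-cell embryos, against 14, 10 and 16 and 13, 12 and 13 in 16-cell embryos. At the 8-cell stage they had 3 and 2 counts in all. Gene models 190322 and 190323, of 537 and 535 bp, had nearly the same counts in every embryo, 316, 411, 229, 330 and 187 beside 301, 404, 206, 315 and 173 in 32-cell embryos, against 20, 38 and 24 beside 18, 43 and 24 in 16-cell embryos. They may share reads of 1 sequence present in both places, which was not tested, and are read here as 1 signal with a log2 fold change of 3.75 to 3.87. Whether other neighbours are parts of 1 transcript was not tested.

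**Figure D4:**
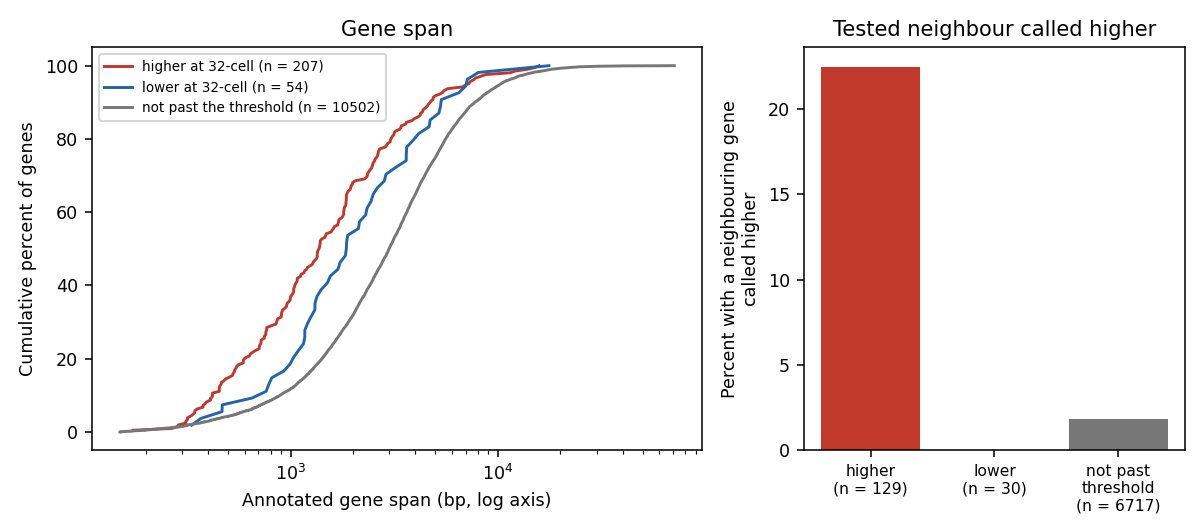
Left, cumulative percent of genes by annotated gene span (bp, log axis) for genes higher, lower and not past the threshold, with the higher genes shifted to short spans (median 1375 bp against 2988 bp for genes not past the threshold). Right, percent of genes with a tested neighbour called higher, which is 22.5% of 129 higher genes, 0.0% of 30 lower genes and 1.86% of 6717 others.

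The components of the TGF-β superfamily were the genes the study set out to follow. Ligands of its Activin/Nodal and BMP branches bind paired type I and type II receptors, which phosphorylate receptor Smads that enter the nucleus with the shared *Smad4*. Of the 33 listed, 32 were in the count table, 19 had enough counts to be tested, 10 had 1 to 9 counts over the 8 embryos and 3, *myostatin*, *activin/inhibin/myostatin-like 2* and *Gremlin*, had none. The component not analysed here was *activin/inhibin/myostatin-like 3*. Of the 19, 1 was higher (5.26%, where 1.93% of all genes were) and 0 were lower. Of the 18 others the smallest adjusted p was 0.0956 in edgeR, for *Smad1/5/8*. DESeq2's Wald test called none of the 18, while edgeR's robust fit and the fit with no filter called *Smad1/5/8*. The median log2 fold change of the 19 was 0.29, against 0.00 over all genes tested.

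None of the ligands passed the threshold, and the adjusted p of those tested was 0.526 or more in edgeR. *BMP2/4* had 37, 71, 44, 40 and 36 counts in 32-cell embryos, against 47, 41 and 75 in 16-cell embryos (log2 fold change 0.21, standard error 0.19), and *BMP5/8* had 11, 24, 19, 13 and 19, against 12, 12 and 29 (0.47, standard error 0.32). *BMP3* was uneven at both stages, with 21, 15, 26, 0 and 2 counts, against 18, 14 and 5 (log2 fold change 0.39, standard error 0.71, and 0.98 without 16-cell replicate 1). *activin/inhibin/myostatin-like 4* had 44, 59, 62, 36 and 28 counts, against 43, 81 and 77 (log2 fold change -0.08, standard error 0.19). The stages overlapped for each of these 4 ligands. *Maverick*, a ligand of the superfamily first known from *Drosophila*, had 2, 4, 0, 1 and 1 counts, against 4, 1 and 0, too few to show a difference, and its log2 fold change of 0.29 was -0.38 without 16-cell replicate 3. *activin/inhibin/myostatin-like 5* had 1, 0, 0, 0 and 3 counts, against 4, 3 and 5 (log2 fold change -1.69, standard error 0.88). Without 32-cell replicate 5 the log2 fold change was -3.15 (adjusted p = 0.138 in edgeR). The *nodal* ligand had 0, 1, 1, 2 and 1 counts, against 0 in each 16-cell embryo, and was under the minimum for the test.

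Among the receptors, the type I receptor *Activin Receptor 1*, of the BMP branch, had 7, 18, 15, 6 and 6 counts in 32-cell embryos, against 7, 0 and 12 in 16-cell embryos (log2 fold change 1.14, standard error 0.55, edgeR adjusted p = 0.469), and 0.55 or 1.74 on the log2 scale without 16-cell replicate 2 or 3. *BMP Receptor 1* ranged from 1 to 18 counts in 32-cell embryos, against 10, 11 and 11 (log2 fold change -0.14, standard error 0.45). In the other branch, *TGF-β Receptor 1* had a log2 fold change of -0.07 (standard error 0.30) and *Activin Receptor 2* had -0.31 (standard error 0.18). The stages overlapped for each of these receptors. *BMP Receptor 2*, the type II receptor of the BMP branch, had 1 count over the 32-cell embryos and 1 over the 16-cell embryos. It was under the minimum for the test.

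The 4 Smads all had positive log2 fold changes, and none passed the threshold. Of the 10839 genes tested, 5405 had the higher mean at the 16-cell stage, and nothing is read from the shared sign of 4 genes. *Smad1/5/8*, the receptor Smad of the BMP branch, had 18, 22, 6, 14 and 6 counts in 32-cell embryos, against 3, 9 and 5 in 16-cell embryos (log2 fold change 1.64, standard error 0.49, edgeR adjusted p = 0.0956). It passed without 32-cell replicate 3 (adjusted p = 0.0415 in edgeR), in edgeR's robust fit (0.0436) and with no filter on low counts (0.0317). *Smad2/3*, its counterpart of the Activin/Nodal branch, had 8, 14, 14, 7 and 6 counts, against 8, 11 and 11 (log2 fold change 0.41, standard error 0.35). The inhibitory *Smad6/7* had 8, 7, 8, 4 and 3 counts, against 4, 6 and 7 (0.53, standard error 0.43), and *Smad4* had 11, 19, 2, 10 and 9, against 7, 12 and 11 (0.48, standard error 0.44).

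Of the modulators, *Noggin A*, a secreted protein that binds BMP ligands and blocks them, was the component that rose. It had 12, 37, 13, 12 and 8 counts in 32-cell embryos, against 2, 2 and 0 in 16-cell embryos (log2 fold change 3.85, standard error 0.63, edgeR adjusted p = 0.000774), with every 32-cell embryo above every 16-cell embryo. It kept its call under each of 22 alternatives, with a log2 fold change between 3.18, without 16-cell replicate 3, and 4.38. *BAMBI*, a membrane pseudoreceptor that dampens signaling, had 5, 4, 0, 7 and 0 counts, against 0, 0 and 3 (log2 fold change 2.02, standard error 1.04, edgeR adjusted p = 0.525). All 3 of its 16-cell counts came from replicate 3, without which the fitted log2 fold change, then against no count, was 4.84 (edgeR adjusted p = 0.325). *TSG*, an extracellular modulator of BMP, had 46, 45, 50, 35 and 28 counts, against 45, 62 and 66 (log2 fold change -0.03, standard error 0.18), and *SMURF*, which targets receptor Smads for degradation, had a log2 fold change of 0.24 (standard error 0.22).

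**Figure D5:**
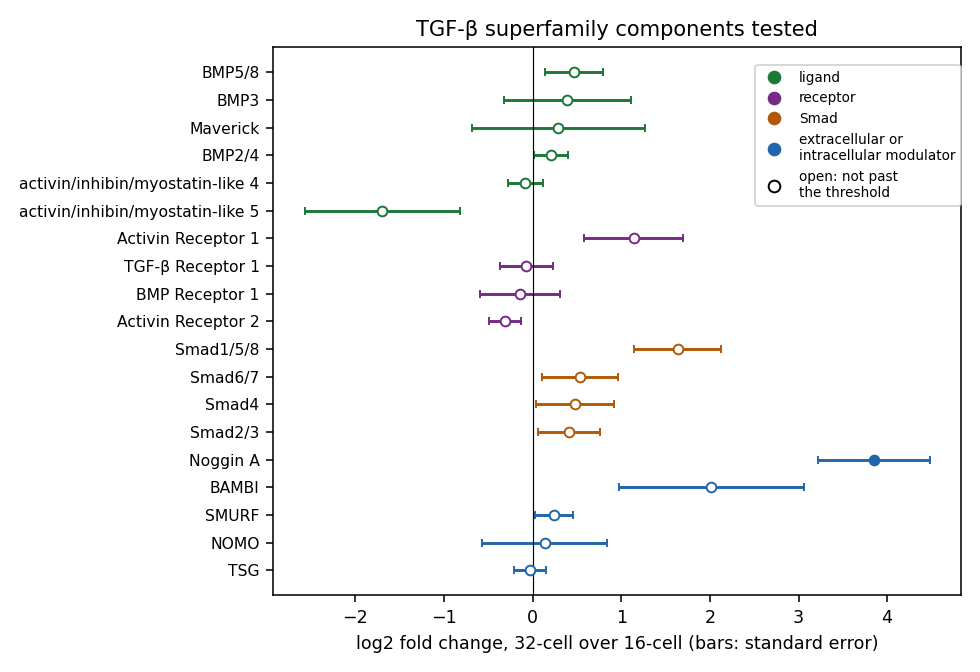
Log2 fold change between the 32- and 16-cell stages, with standard error bars, of the 19 TGF-β components tested, grouped as ligands, receptors, Smads and modulators, filled where past the threshold. *Noggin A* at 3.85 is the single filled point, and the ligands other than *activin/inhibin/myostatin-like 5*, at -1.69, lie between -0.08 and 0.47.

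Over all genes tested, embryos of the 2 stages lay a mean distance of 140.5 apart on the log2(CPM + 1) scale, against 130.0 between embryos of 1 stage, a difference of 10.5 (one-sided exact permutation test over 56 assignments, p = 0.0179, the smallest these can give). Without 16-cell replicate 1, 2 or 3 the difference was 7.19, 8.01 or 9.55 and the exact permutation p 0.143, 0.0952 or 0.0952. The embryo farthest from others of its stage was 32-cell replicate 5, which had the smallest total. Thinned at random to that total, the embryos had counts for 11916 ± 176 gene models in 32-cell embryos (SD, n = 5) and 11526 ± 237 in 16-cell embryos (SD, n = 3), a difference of 389.8 that was not past 0.05 (two-sided exact permutation test, p = 0.0536). The thinning was 1 random draw, and further draws were not tried for this difference. Before thinning the difference was -344.7, with the deeper 16-cell embryos higher. The thinned difference was 446 without 32-cell replicate 4 (exact permutation p = 0.0286) and 523.3 without 16-cell replicate 1 (exact permutation p = 0.0476). Each of these p is the smallest its 35 or 21 assignments can give. With any of the other 6 embryos left out it was 296.3 to 418.5 (exact permutation p between 0.0857 and 0.143). Counting only gene models with at least 3 counts it was 100.3 (exact permutation p = 0.429).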

How the data were processed

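Reads were assigned to embryos by barcode and aligned by the authors with Bowtie2 to an assembly of the species, and tags were counted for each gene model by a script based on htseq-count (a commit of the CEL-Seq pipeline is named, while versions of Bowtie2 and htseq-count are not given in the sources used here) and, per their methods, turned into transcript numbers. The deposited counts are whole numbers per embryo and gene model, not normalized, and their largest value is 1024. Whether they had already been turned into transcript numbers was not tested. If so, the correction for UMI collisions used here as an alternative would repeat that step. The deposited CPM values, used only as a check, equal count over total times 1000000 to within a relative 4.84e-10. The authors' table of their own likelihood ratio test (fold changes and p-values) was not used. Spike-ins were added to the samples and 0 of them are among the counts used here, so changes are relative to the other transcripts of the embryo.

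Stages were read from the sample titles. All 12 embryos entered 1 fit in edgeR 4.0.16 (R 4.3.3) with TMM scaling, and 32-cell minus 16-cell was tested for genes with at least 10 counts over the 8 embryos. The standard error is the log2 fold change over the square root of F. DESeq2 1.42.0 was an alternative. The procedure was tested on simulated data. Of the genes tested, 10763 (99.3%) were found by locus tag in the Capca1 annotation, which gave positions. Figures used matplotlib 3.10.9 in Python 3.11.15. Alternatives were DESeq2 size factors, library totals, filterByExpr, no filter, thinning, correction for UMI collisions, the 8 embryos alone, a replicate block, DESeq2's Wald test, a robust fit, each embryo left out and a threshold of 0.1. Replicate pairs of a stage differed by more than sampling noise (chi-square per degree of freedom 1.81 to 2.64).

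Named genes were the TGF-β components and, among genes past the threshold whose stages did not overlap, the 6 largest rises and the 6 largest falls with at least 3 counts in the lower stage and a mean of 10 CPM in the higher one, the 6 without a 16-cell count that had most counts, and the 3 most abundant in each direction. The same rule for genes without a 32-cell count found none. Gene models in runs of neighbours, gene models 221991 and 221479, the 2 without a 32-cell count and those among the other observations were chosen after their values were seen. The members and lists were chosen with earlier results of these data known.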

Additional observations from a re-analysis of the deposited data

Results flagged for a closer look

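The values of the 5 embryos of the 32-cell stage were searched for 1 standing far away from its group. This was so for 4 of 45 genes or other measures, and chance gives about 1 in 20. *Noggin A* stood at 90.25 CPM in 32-cell replicate 2, against 36.9 to 42.0 CPM in the other 4 embryos of the stage. *activin/inhibin/myostatin-like 4* stood at 193.7 CPM in 32-cell replicate 3, against 125.9 to 144.9 CPM. *Smad4* stood at 6.248 CPM in the same embryo, against 35.0 to 46.4 CPM. *activin/inhibin/myostatin-like 5* stood at 13.83 CPM in 32-cell replicate 5, against 0 to 3.29 CPM, on 3 counts.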

How the results depend on the processing

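The count of 263 genes past the threshold lay between 196 (without 16-cell replicate 3) and 264 with each embryo left out, and was 431 with no filter (325 higher and 106 lower). DESeq2's Wald test called 207 of the same 263 genes. Lower genes numbered 90 with library totals, 30 in DESeq2's Wald test and 86 at a threshold of 0.1. Genes called without a 16-cell count numbered 3 under filterByExpr, 12 in DESeq2 and 13 with a replicate block. Genes called without a 32-cell count numbered 2 with no filter, 1 with the 8 embryos alone, 1 at a threshold of 0.1 and 0 to 1 with an embryo left out. Library totals moved the median log2 fold change of all genes by -0.08. The difference of distances between and within stages lay between 7.19 and 13.4 with an embryo left out, and that of gene models detected between 296.3 and 523.3, and -344.7 without thinning. With the replicate number as a block, 230 genes were called, 191 higher and 39 lower. Correlations of the deviations of embryos with the same number were -0.054, 0.020 and 0.012. Those of embryos with different numbers ran from -0.156 to 0.177. On so few embryos these values cannot show whether the numbers pair the embryos. Where the cause of these differences is not given by the setting itself, the cause was not tested. Counts of 3 or fewer per stage limit what can be seen of genes under 1.91 CPM in 32-cell embryos or 2.44 CPM in 16-cell embryos.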

Other observations

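Some transcripts called higher differed widely between embryos of the 32-cell stage. Of the 209 higher genes, 4 had more than the other 4 embryos together in 1 embryo of the 32-cell stage, and 3 of these varied alike. Gene model 224115 had 63, 37, 45, 1 and 222 counts in 32-cell replicates 1 to 5, against 8, 9 and 5 at the 16-cell stage (adjusted p = 0.0365 in edgeR). Gene model 202231 had 29, 17, 31, 1 and 81 counts, against 4, 0 and 1, and gene model 204179 had 36, 18, 14, 1 and 83 counts, against 2, 2 and 2. In each of the 3, 32-cell replicate 4 had a single count and replicate 5 the most, although replicate 5 had the smallest total.

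Uneven counts between embryos of the 16-cell stage were seen as well. Gene model 228081 had 3 to 5 counts in the embryos of the 32-cell stage, against 202 in 16-cell replicate 3 and 6 and 4 in 16-cell replicates 1 and 2, while the 8-cell embryos had 1 to 4. Gene model 111686 had 0 or 1 counts in each 32-cell and 8-cell embryo, and 41 in 16-cell replicate 3 beside 2 and 0 in replicates 1 and 2. Gene model 150358 had 46 counts in 32-cell replicate 4 and 2 to 9 in the others of that stage, against 8, 88 and 271 in the 16-cell embryos.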
